A study of Rattus norvegicus with 8 samples.

Results

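The cytosolic ribosome is built from ribosomal RNA and a set of ribosomal proteins, which are named *Rpl* for the large subunit and *Rps* for the small subunit. Every cell makes these proteins in matched amounts, and in neurons and glia of the hypothalamus the supply of ribosomes sets how much protein can be made. Most ribosomal protein mRNAs begin with a C followed by an unbroken run of C and T, the terminal oligopyrimidine (TOP) tract, through which mTOR and the RNA-binding protein LARP1 control their translation. The genes were chosen by symbol, as Rpl or Rps followed by a number together with *Rpsa*, *Rplp0*, *Rplp1* and *Rplp2*, without the Rps6k kinases and without pseudogenes. The rule found 81 genes among 15159 named genes on the array, 50 of the large and 31 of the small subunit, with 142 probes among 30367. The family was picked because its ratios of RA over vehicle showed a small shared rise in these same arrays, so those ratios are given as a description and carry no test.

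Male F344 rats (F344N in the labels) held in SD received 5 μl of all-*trans* retinoic acid (RA) or vehicle ICV into the third ventricle. Blocks of hypothalamus were collected after 24 hrs. The labels give the RA as 1e-05 M and the vehicle as saline, whereas the methods give 1e-04 M and 10% DMSO in saline for the rats used on arrays. RNA of 4 RA-injected and 4 vehicle-injected rats was hybridised with dye-swap to 8 two-colour arrays, all on the same slide. Arrays 1, 3, 6 and 8 carried the RA sample in Cy5, and arrays 2, 4, 5 and 7 carried it in Cy3. Neither the labels nor the methods say which arrays share RNA, and the age of the rats was not given. A value below is the log2 ratio of RA over vehicle for the brightest probe of a gene, and a mean gives both dye orders equal weight. The blocks are bulk tissue, in which fewer cells of a type and less RNA per cell cannot be told apart.

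The arrays differed in tissue markers. The choroid plexus marker *Ttr*, which encodes transthyretin, had log2 ratios of -4.48 and -5.11 on arrays 6 and 7 and of 0.57 to 1.76 on the others. The median of 10 choroid plexus markers, 5 of them well above background on all arrays, was -1.39 and -1.59 on arrays 6 and 7 and 0.08 to 0.57 elsewhere. Of 15 hypothalamic neuron markers measured, 14 were well above background on all arrays, and the list's median ratio was -0.08. By their means over all arrays, 6 of them were above 0, the highest at 0.65, and 9 were below. The list's median was -0.35 on array 5 and -0.26 on array 8, against -0.03 to 0.29 on the others. The melanocortin precursor gene *Pomc* had -1.11 and -1.08 on arrays 5 and 8, against -0.20 to 0.33 elsewhere. The orexin gene *Hcrt* had -1.01 and -1.03, against -0.02 to 0.33. The median of red blood cell markers was 0.93 and 0.76 on arrays 3 and 4 and -0.88 and -0.70 on arrays 5 and 8. The median ratio over all named genes lay between -0.0079 and 0.0077 on the 8 arrays, and in the RA channel 57.4% to 74.6% of probes counted as well above background.

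Start sites of 12 ribosomal protein genes are shown for the TOP tract, a feature that the choice of genes did not use, and 8 of them hold it. They comprise genes from the top and the bottom of the ranking by ratio. Each is written 5′ to 3′ with 12 bases before and 18 bases from the start that RefSeq annotates on GRCr8, in lower case, and a TOP tract (C at the start and at least 4 further C or T) is in capitals.
*Rplp0*, chr12:46718373-46718402, minus strand: cgcaccgcacttCTCTCgccaggcgtcctc
*Rpl22*, chr5:168117949-168117978, plus strand: gtgcgcccccctCCCTTTCTgcctcctctg
*Rpl39*, chrX:121195879-121195908, minus strand: tctaatcgcgttCTTCCggcctgtcctttc
*Rpl10a*, chr20:6390521-6390550, plus strand: accttctgccttCTTTTCCggttcccgcag
*Rps18*, chr20:4933733-4933762, plus strand: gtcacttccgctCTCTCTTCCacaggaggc
*Rps2*, chr10:14251836-14251865, plus strand: cttctttttcttcgggaaaacacgtgagtc
*Rpsa*, chr8:128728867-128728896, plus strand: ttccgcgctaccctggaacgggtccgtacg
*Rpl18*, chr1:105325258-105325287, plus strand: ggacctggtctagcaggaggcgccatcatg
*Rpl9*, chr14:43247578-43247607, plus strand: gaaggacgttctCTCTTTgccccatctact
*Rps3a*, chr2:173827025-173827054, minus strand: ttgtacttccgcCCTTTTggctctcagagc
*Rps7*, chr6:50999428-50999457, minus strand: cgagagctgtgtCTCTTTCTaagccggcac
*Rps23*, chr2:23814505-23814534, plus strand: gtccttcctgcctctcttctctctttctct

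RefSeq gave a promoter for 66 of the 81 genes, with 67 starts. A TOP tract of 5 to 12 bases began at 23 of these 67 starts (34.3%), against 881 of 33469 starts of all genes (2.63%). The annotated start decides this count. In *Rps23* the start is a T inside a run of C and T, and in *Rps2* it is the C that ends such a run. The 23 genes with a TOP tract had a median log2 ratio of 0.075 (22 above 0), and the 43 without had 0.083 (40 above 0). Over the whole window of 250 bases before and 50 after the start, read on both strands, the ETS motif CCGGAAG was found at 28.4% of the family's starts and 8.75% of all starts. The Sp1 motif GGGCGG was found at 58.2% and 33.1%, and the pyrimidine motif CTTTCC, which can lie within a TOP tract, at 49.3% and 26.4%. The nuclear receptor core motif AGGTCA was found at 16.4% and 16.2%. A direct repeat of this site with 5 bases between was found at none of the 67 starts and at 3 of all starts. The TATA motif TATAAA was found at 10.4% and 14.2%.

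Ribosomal protein genes were shifted upward by a small amount. The mean log2 ratio was above 0 in 74 of 81 genes, against 47.6% of all named genes, and the median was 0.08 (1.06-fold). The middle of the family lay between 0.047 and 0.13 (quartiles), and 47 genes were within 0.1 of 0. The median SD over the 4 arrays of a dye order was 0.12 where Cy5 labelled RA and 0.091 where Cy3 did, larger than the median ratio itself. The median of all named genes was -0.0047, and that of the brightest 10% of named genes, without the family, was -0.023. Only 11 genes were above 0 on all 8 arrays (background 4.07% of named genes). At least 7 arrays were above 0 in 25 genes, for which no background was counted. None was below 0 on every array, which is rare among all named genes as well (273 of 15159). In the limma fit over all probes, 3.52% of all named genes were higher and 0.792% lower at an unadjusted p under 0.01. No count of the family is given from this fit, because the family was picked on the same ratios. At an adjusted p under 0.05 no named gene was called (background 0%).

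**Figure D1:**
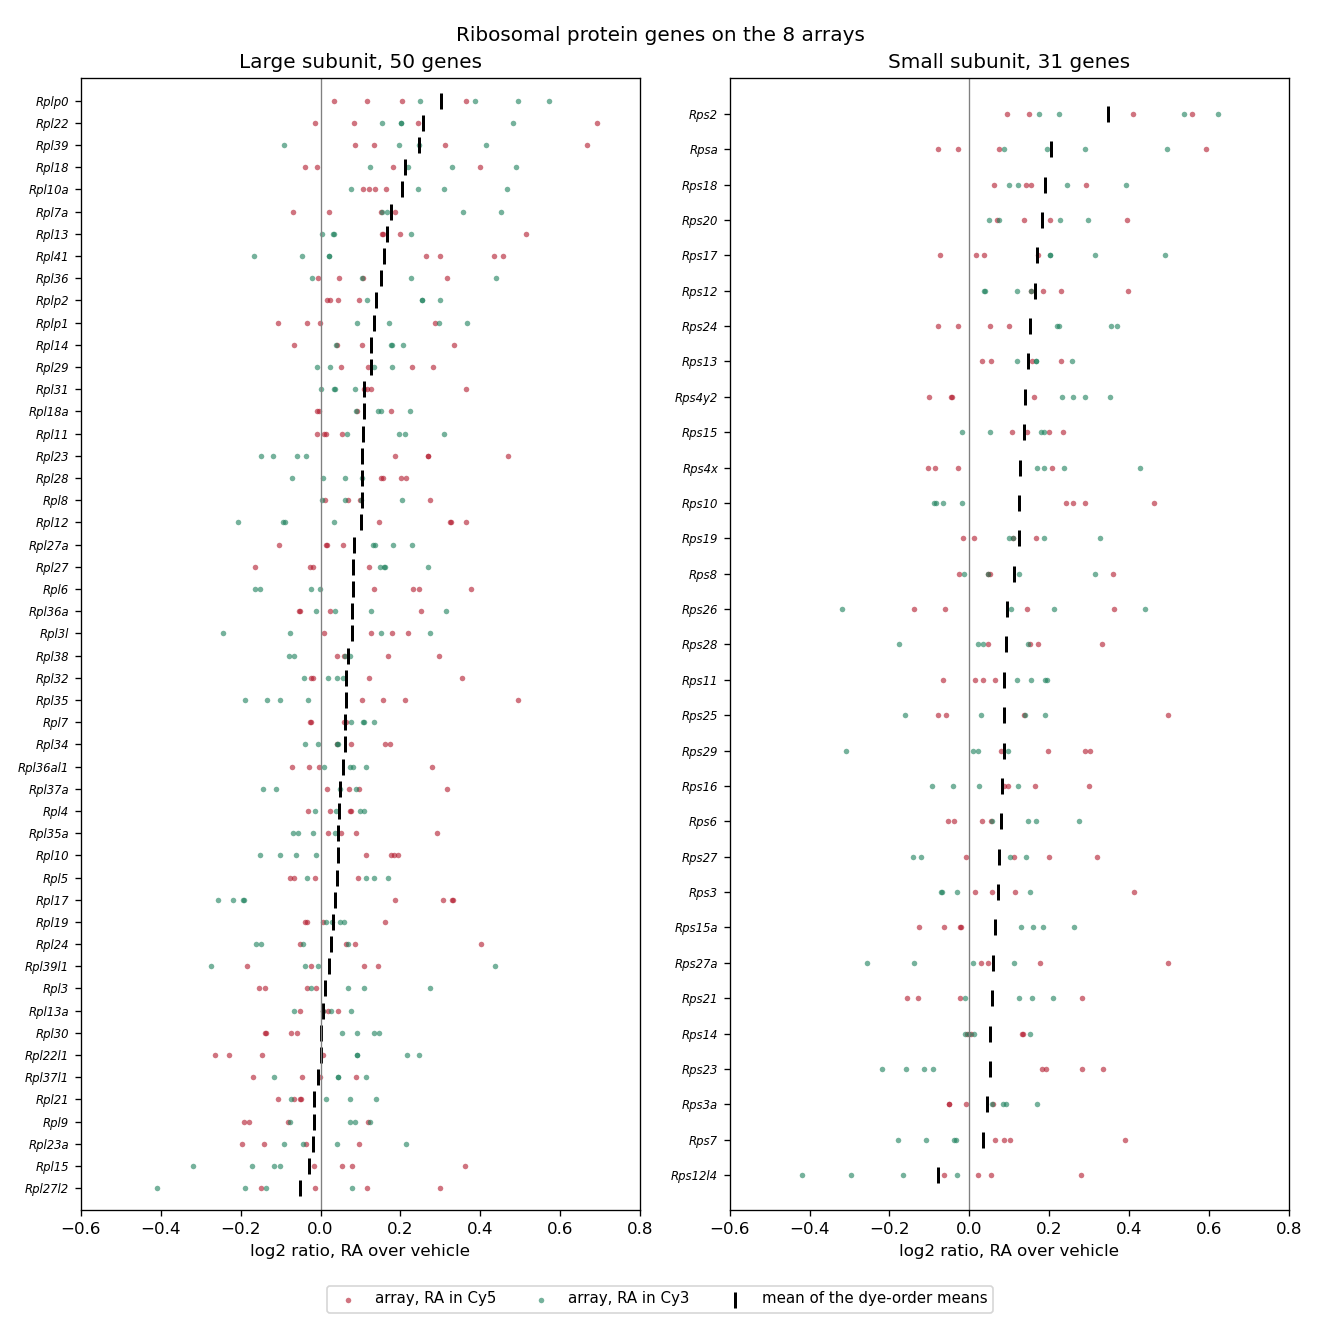
Log2 ratio of RA over vehicle (x axis) for each of the 81 genes, large subunit left and small subunit right, sorted by mean. Points are single arrays coloured by dye order and the black bar is the mean of the dye-order means. Most means lie right of 0 and most genes have arrays on both sides of it.

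**Figure D2:**
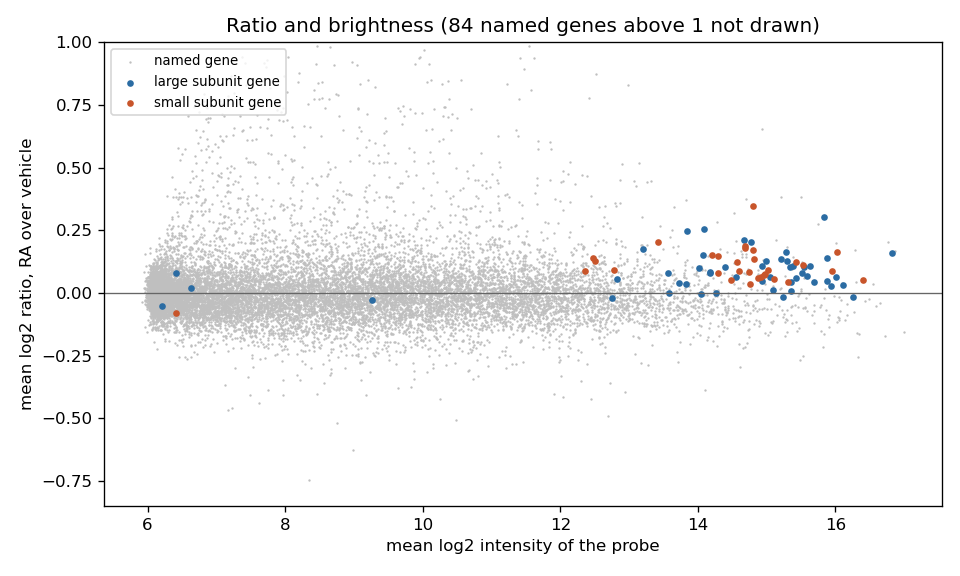
Mean log2 ratio of RA over vehicle (y axis) against mean log2 intensity of the probe (x axis) for all named genes in grey and the ribosomal protein genes in colour. Nearly all of the family lies among the brightest probes, where the other named genes are centred near 0, and 84 named genes with a log2 ratio above 1 are outside the drawn range.

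Brightness of a probe is no measure of a gene's abundance against another gene. Of the family, 77 of the 81 genes were well above background in both channels on all arrays. The 4 exceptions were *Rpl3l*, *Rpl39l1*, *Rpl27l2* and *Rps12l4*. No spot of the family was saturated. Other probes of the same genes gave a further reading. For the 47 genes with more than 1 probe there were 61 further probes, of which 51 were above 0 with a median of 0.077. Probes of a gene differed by a median of 0.014 on the log2 scale and at most by 0.089. RefSeq lists 876 pseudogenes with ribosomal protein names and 264 genes that the rule would name, and the deposited arrays do not show whether a probe also binds RNA of such a copy.

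Among small subunit genes, *Rps2*, whose protein lies near the site where mRNA enters the ribosome, had the highest mean ratio of the family at 0.35 (1.27-fold). Its log2 ratios were 0.15, 0.09, 0.56 and 0.41 on arrays 1, 3, 6 and 8 and 0.22, 0.18, 0.54 and 0.62 on arrays 2, 4, 5 and 7. All 8 were above 0, and the 4 arrays of slide row 2 were all higher than the 4 of row 1. Its 3 other probes had means of 0.34, 0.36 and 0.39. *Rpsa*, the laminin receptor protein of the small subunit, followed with a mean of 0.20. Its log2 ratios were -0.08, -0.03, 0.59 and 0.07 with RA in Cy5 and 0.19, 0.09, 0.29 and 0.50 with RA in Cy3. Arrays 6 and 7 were the highest of each dye order, and without them the mean of *Rpsa* was 0.090. *Rps18*, a protein of the head of the small subunit, had a mean of 0.19. It was above 0 on every array, from 0.06 on array 3 to 0.39 on array 7. *Rps20*, also of the head, had a mean of 0.18 and ran from 0.05 on array 4 to 0.39 on array 6.

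The lowest small subunit genes among those well above background were still at or above 0 on average. *Rps7* had a mean of 0.04, with 0.06, 0.09, 0.39 and 0.10 on the arrays with RA in Cy5 and -0.04, -0.03, -0.18 and -0.11 on those with RA in Cy3. The dye orders of *Rps7* did not overlap, and its mean without arrays 6 and 7 was close to 0. *Rps3a* had a mean of 0.04 and ran from -0.05 to 0.17. *Rps23*, a protein of the decoding centre, had a mean of 0.05 that was made of opposite signs in the dye orders, as described below. The single small subunit gene below 0 was *Rps12l4* (-0.08), whose probe was well above background on 2 arrays in each channel, whereas its parent gene *Rps12* was at 0.16 and above 0 on all 8 arrays.

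Among large subunit genes, the stalk protein gene *Rplp0* was highest with a mean of 0.30 (1.23-fold). Its protein forms the base of the stalk that recruits elongation factors. The log2 ratios were 0.03, 0.12, 0.36 and 0.20 with RA in Cy5 and 0.25, 0.49, 0.57 and 0.39 with RA in Cy3. All 8 were above 0 and the dye orders overlapped. The acidic stalk proteins that bind *Rplp0* had smaller means, 0.13 for *Rplp1* and 0.14 for *Rplp2*. *Rplp2* was above 0 on all 8 arrays, from 0.02 to 0.30, and *Rplp1* ran from -0.11 to 0.37.

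*Rpl22*, an RNA-binding protein of the large subunit, had a mean of 0.26. Its log2 ratios were -0.01, 0.08, 0.69 and 0.24 with RA in Cy5 and 0.20, 0.15, 0.20 and 0.48 with RA in Cy3. Array 6 in the first dye order and array 7 in the second stood above the rest, and the mean without both was 0.15. *Rpl39*, a small protein that lines the exit tunnel, had a mean of 0.25 with 0.13, 0.09, 0.67 and 0.31 in the first dye order and 0.25, -0.09, 0.20 and 0.42 in the second. Its mean without arrays 6 and 7 was also 0.15. *Rpl18* had a mean of 0.21, ran from -0.04 to 0.49 and was highest on arrays 6 and 7. *Rpl10a* was more even, with a mean of 0.20 and 8 of 8 arrays above 0 between 0.08 and 0.47.

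At the other end, 6 large subunit genes had a mean below 0. They were *Rpl27l2* (-0.05), *Rpl15* (-0.03), *Rpl23a* (-0.02), *Rpl9* (-0.02), *Rpl21* (-0.02) and *Rpl37l1* (-0.01). *Rpl15*, a core protein that binds ribosomal RNA, had 0.08, 0.05, 0.36 and -0.02 with RA in Cy5 and -0.17, -0.32, -0.12 and -0.10 with RA in Cy3. The dye orders of *Rpl15* did not overlap. *Rpl23a*, a protein beside the exit tunnel, ran from -0.20 on array 6 to 0.21 on array 4 and was the 1 gene of the family that was lowest on array 6. *Rpl9* ran from -0.19 to 0.13.

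Several genes are copies of another ribosomal protein gene, and some such copies are known for use in particular tissues. *Rpl22l1* was well above background on all arrays with a mean of 0.0015, against 0.26 for *Rpl22*. Its ratios were -0.15, -0.23, 0.01 and -0.27 with RA in Cy5 and 0.22, 0.25, 0.09 and 0.09 with RA in Cy3, so the dye orders had opposite signs on all arrays but array 6. *Rpl36al1* had a mean of 0.06 and its parent *Rpl36a* had 0.08. *Rpl37l1* had a mean of -0.01. *Rpl3l*, a copy known from muscle, had 0.08 against 0.01 for *Rpl3*, but was well above background on 3 arrays in the RA channel and 1 in the vehicle channel. *Rpl39l1* had 0.02 against 0.25 for *Rpl39* and was well above background on 4 and 3 arrays. *Rpl27l2* had -0.05 against 0.08 for *Rpl27* and was well above background on 0 arrays in the RA channel and 1 in the vehicle channel. Ratios of the dim genes *Rpl3l*, *Rpl27l2* and *Rps12l4* moved with the background correction, as given under the processing alternatives.

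The small subunit was a little above the large subunit. The median log2 ratio was 0.09 over 31 small subunit genes and 0.07 over 50 large subunit genes, and 30 of 31 and 44 of 50 were above 0. The difference of 0.017 between the medians was smaller than the SD over the 8 arrays of the small minus large difference (0.033). It was also smaller than the SD of either subunit's own median (0.081 and 0.058), which holds the shift shared by both subunits. The 8 arrays hold dye-swaps of the same RNA. On each array the small subunit median was the higher, by 0.0014 on array 4 to 0.10 on array 7. Without arrays 6 and 7 the difference was 0.0064. The paralogs named above are all of the large subunit but *Rps12l4*, and most of the large ones lie below that subunit's median. These subunit differences were not tested. Genes above 0 on at least 7 arrays were 11 of 31 and 14 of 50.

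**Figure D3:**
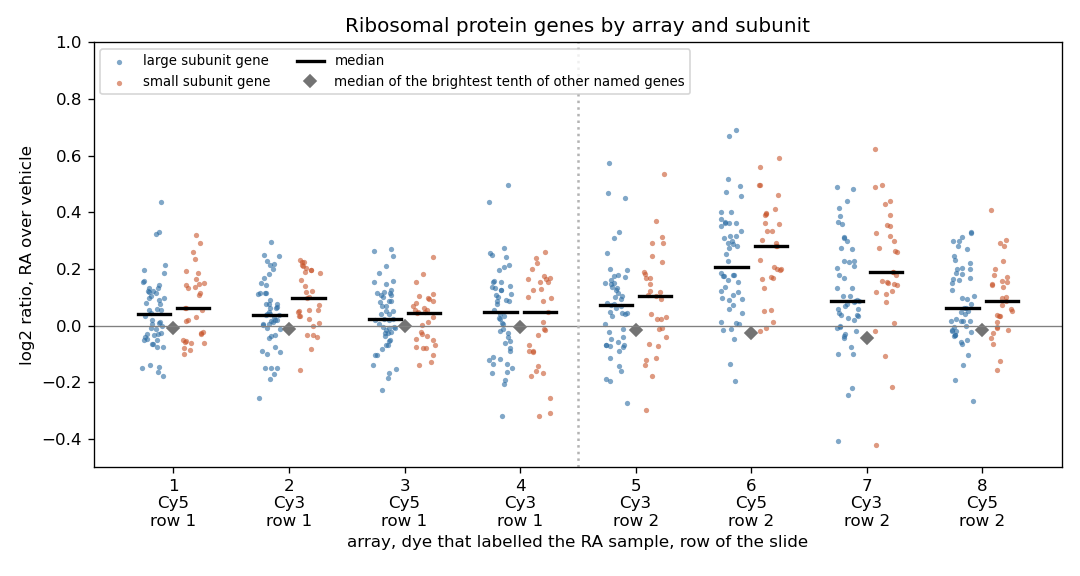
Log2 ratio of RA over vehicle (y axis) of each large subunit gene (blue) and small subunit gene (orange) on the 8 arrays, with the dye of the RA sample and the slide row under each array. Black bars are medians and grey diamonds the median of the brightest 10% of other named genes. All medians of the family are above 0, highest on arrays 6 and 7.

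The median of the family was above 0 on each array, and differed in size between arrays. It was 0.05, 0.06, 0.03 and 0.05 on arrays 1 to 4 and 0.07, 0.25, 0.14 and 0.07 on arrays 5 to 8. The number of genes above 0 was 50, 60, 48 and 48 and then 54, 74, 64 and 57. The labels give no position on the slide. Slide rows were read from the numbers that end the names of the scans, taken as row and column. By these the first of the slide's rows holds arrays 1 to 4, and the other holds arrays 5 to 8. The highest ratio of a gene was on array 6 in 34 genes and on array 7 in 21. The same count over all named genes was not made. Ratios of all named genes also spread widest on arrays 6 and 7 (SD 0.33 and 0.32, against 0.18 to 0.31 on the others). Without arrays 6 and 7 the family's median was 0.049 and 69 genes were above 0, and without array 6 alone 0.065 and 71.

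Arrays 6 and 7 were also those with the loss of choroid plexus markers, and with the highest medians of 9 reactive astrocyte markers (2.67 and 2.47, against 0.47 to 2.13 elsewhere). Over all arrays the mean of *Gfap*, the intermediate filament of astrocytes, was 1.40, and the median of 9 microglia markers was 0.83. By array the microglia median was highest on arrays 8 (1.21) and 5 (1.13), with 1.10 on array 7 and 0.99 on array 6. The monocyte and macrophage median was highest on arrays 6 (1.32) and 7 (1.14). The 6 neuron markers had a median of -0.16, lowest on array 6 (-0.42). Of these marker lists, 8 of 9 reactive astrocyte genes, 5 of 9 microglia genes and 5 of 8 monocyte and macrophage genes were higher at an unadjusted p under 0.01, and 2 of 6 neuron genes were lower. The microglia list also held 1 gene called lower, *Tmem119* (-0.52, below 0 on all 8 arrays), and *P2ry12* was at -0.15. The part of a changed cell mix in the ratios of the ribosomal protein genes was not tested.

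The slide rows split the same ratios on which the family was picked, and row 2 had the wider spread over all named genes (SD 0.29 to 0.33, against 0.18 to 0.20). The count of genes that were higher in row 2 is therefore a description. The family's median was 0.04 in row 1 and 0.13 in row 2, and 71 of 81 genes had the higher mean in row 2, against 52.4% of all named genes. Gene by gene the difference did not pass, with 0 of 81 genes at an adjusted p under 0.05 in limma (background 0.132%, smallest adjusted p 0.394). At an unadjusted p under 0.05 there were 3, against a background of 7.96%. These were *Rps2* (higher by 0.37 in row 2, SE 0.096, adjusted p 0.394), *Rpl18* (0.28, SE 0.10, adjusted p 0.65) and *Rpl7a* (0.22, SE 0.091, adjusted p 0.70). With the 8 arrays taken as independent, 1 of the 81 was called, *Rps2*. In both rows 64 genes had a mean above 0. Arrays 6 and 7 lie in row 2. Its other arrays, 5 and 8, had family medians of 0.07 each, above the 4 medians of row 1 (0.03 to 0.06).

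Between dye orders the family's median was alike, but its genes were not. The median was 0.11 with RA in Cy5, where 65 genes were above 0, and 0.08 with RA in Cy3, where 60 were. Of the family, 44 genes were above 0 in both orders and none was below 0 in both. Of 15159 named genes, 3591 were above 0 in both orders and 3647 were below 0 in both. Of the same named genes, 7729 were above 0 where Cy5 labelled RA and 7372 where Cy3 did. The family was picked on these ratios, so its counts carry no test. Over the 81 genes, the dye-order means correlated with r = -0.27. Arrays of the same dye order correlated with r between 0.35 and 0.81 (12 pairs, median 0.58), and arrays of opposite order between -0.56 and 0.19 (16 pairs, median -0.27, 2 pairs above 0). These are correlations over genes that share the arrays and the dyes, given as a description. The order of the genes in 1 dye order did not carry over to the other.

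**Figure D4:**
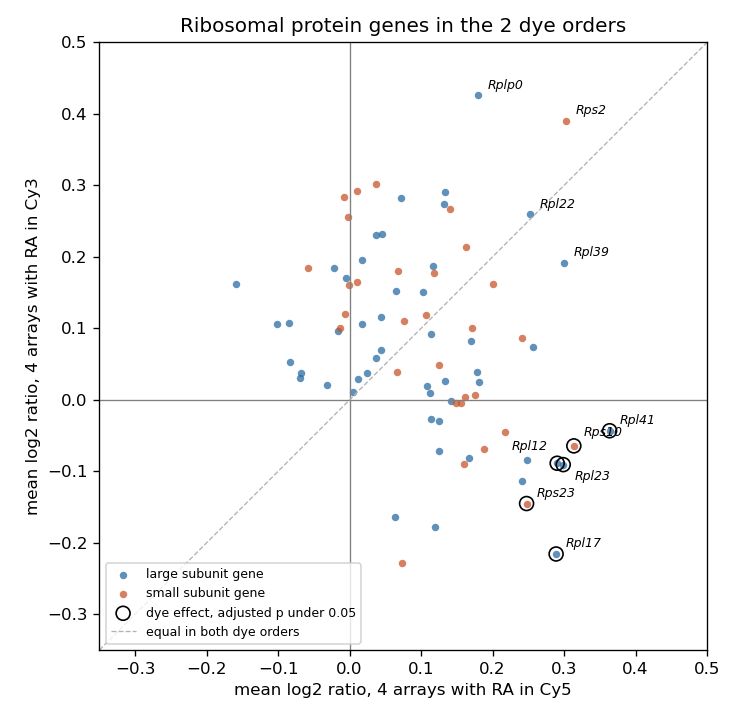
Mean log2 ratio of each gene on the 4 arrays with RA in Cy3 (y axis) against the 4 arrays with RA in Cy5 (x axis), coloured by subunit, with open circles for genes with a called dye effect. Points spread along the falling diagonal, and the 6 circled genes are above 0 on the x axis and below 0 on the y axis.

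The dye effect, which cancels in the mean of both orders, was tested on the 8 arrays. In 6 of 81 genes it passed an adjusted p of 0.05 in limma (background 3.91% of named genes), all with the higher ratio when RA was in Cy5 (background 2.45%). The family's probes are bright. Among the 1439 brightest named genes outside the family the dye effect was called in 102, a share close to the family's. Of these 102 genes, 72 had the higher ratio when RA was in Cy5. An excess in the family over genes of like brightness was not tested. The test counts arrays, which are dye-swaps and so share RNA. *Rpl17*, an exit tunnel protein, had the largest effect, with a mean of 0.29 (SD 0.069, n = 4) with RA in Cy5 and -0.22 (SD 0.031, n = 4) with RA in Cy3 (adjusted p 0.015, limma). Its ratios were 0.33, 0.19, 0.31 and 0.33 in the first order and -0.26, -0.19, -0.19 and -0.22 in the second. *Rpl41*, the shortest ribosomal protein, had means of 0.36 and -0.04 (adjusted p 0.030, limma). *Rps23* had means of 0.25 and -0.15 (adjusted p 0.025, limma). *Rpl12*, *Rpl23* and *Rps10* had adjusted p between 0.030 and 0.039. The arrays of the dye orders did not overlap in these 6 genes, which follows largely from the test that called them. In each of them the mean was above 0 with RA in Cy5 and below 0 with RA in Cy3, and the means over both orders ran from 0.04 to 0.16. Leaving out any single array left 1 to 3 of the 6, and *Rpl17* was called each time. When arrays were paired as their ratios over other genes hinted, the count rose to 16 of 81, 11 higher and 5 lower with RA in Cy5, against 11.3% of named genes. *Rps2*, *Rplp0*, *Rpl22* and *Rpl39* had no called dye effect (adjusted p 0.75, 0.17, 0.98 and 0.70, limma).

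Other small subunit components, whose symbols the rule does not reach, were measured as well. *Fau*, which encodes Rps30 fused to a ubiquitin-like protein, had a mean log2 ratio of -0.02 (SE 0.053, 3 of 8 arrays above 0, adjusted p 0.95, limma). *Rack1*, a scaffold on the small subunit, had 0.19 (SE 0.067, 8 of 8 above 0, adjusted p 0.36), with 0.06 in row 1 and 0.33 in row 2. Neither passed an unadjusted p of 0.01.

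The mitochondrial ribosome, which is made from nuclear genes of its own, gave a contrast of like function. Over 66 mitochondrial ribosomal protein genes the median was 0.0016, 34 were above 0 and none was called in either direction (1 at an unadjusted p under 0.05, limma). Its median lay between -0.01 and 0.02 on the 8 arrays, below that of the cytosolic family on each. This difference was not tested.

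Other genes of the translation machinery had medians between these. Over all 7 companion lists, 10 of 230 genes were higher and 1 lower at an unadjusted p under 0.01 (4.78%, limma). The background was 4.31% of named genes in either direction. The 230 include the 66 mitochondrial ribosomal protein genes, none of them called, which lowers the pooled share. No gene of the lists passed an adjusted p of 0.05 (smallest 0.222). Elongation factors had a median of 0.07, with 10 of 13 above 0 and 0 called (4 at an unadjusted p under 0.05). *Eef1a1*, which brings aminoacyl-tRNA to the ribosome, had 0.07 (SE 0.045), above 0 on all 8 arrays, and *Eef2*, the translocation factor, had 0.09 (SE 0.091) with values from -0.17 to 0.46.

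Of 37 initiation factor genes, 4 were called higher and 1 lower. *Eif4ebp1*, an inhibitor of cap-dependent translation that mTOR inactivates, had the largest ratio at 0.74 (SE 0.13, 1.67-fold, from 0.24 to 1.15, unadjusted p 0.00061, adjusted p 0.22, limma). The poly(A)-binding protein genes *Pabpc1* (0.37, SE 0.089, adjusted p 0.27), itself a known TOP mRNA, and *Pabpc4* (0.26, SE 0.053, adjusted p 0.25) were above 0 on all 8 arrays. The helicase gene *Eif4a1* was at 0.21 (SE 0.055, adjusted p 0.29), whereas its relative *Eif4a2* was at -0.17 (SE 0.048, adjusted p 0.30) and below 0 on all 8 arrays. When pairs of arrays, 1 of each dye order, were left out, *Eif4ebp1* and *Pabpc4* passed the unadjusted threshold in all 16 cases, *Pabpc1* in 9, *Eif4a1* in 4 and *Eif4a2* in 1.

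Ribosome assembly genes, which make and fold ribosomal RNA and join it to the proteins, had a median of 0.06, with 55 of 67 above 0, 2 called higher and none lower. *Fbl*, the methyltransferase of the nucleolus, had 0.36 (SE 0.089, adjusted p 0.27, limma), with 0.18 in row 1 and 0.54 in row 2. *Ddx21*, a nucleolar helicase, had 0.28 (SE 0.075, adjusted p 0.29) and 7 of 8 arrays above 0. *Npm1* and *Ncl*, the abundant nucleolar proteins, were not called at 0.08 (SE 0.048) and 0.07 (SE 0.050). They passed in 10 (*Fbl*) and 4 (*Ddx21*) of the 16 cases with a pair left out. In the RNA polymerase I list, whose products make the large ribosomal RNA, 16 of 17 genes were above 0 with a median of 0.05. *Taf1c* (0.23, SE 0.044, adjusted p 0.23) passed in all 16 cases and *Polr1g* (0.25, SE 0.072, adjusted p 0.31) in 4.

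Among 20 upstream regulators the median was 0.01 and 1 was called. *Myc*, a transcription factor known to drive ribosome production, had 0.63 (SE 0.15, 1.54-fold, adjusted p 0.27, limma) and was above 0 on all 8 arrays, from 0.01 to 1.20. Its mean was 0.28 in row 1 and 0.98 in row 2, and it passed in 12 of 16 cases with a pair left out. *Mtor* had -0.03 (SE 0.047) and *Rps6kb1*, the kinase of ribosomal protein S6, had 0.12 (SE 0.047, adjusted p 0.42), neither of them called. *Larp1* is not analysed here. In the other ribosome component list, *Nap1l1*, a histone chaperone with a TOP mRNA, was called at 0.21 (SE 0.047, adjusted p 0.26), above 0 on all 8 arrays, and passed in 12 of the 16 cases.

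**Figure D5:**
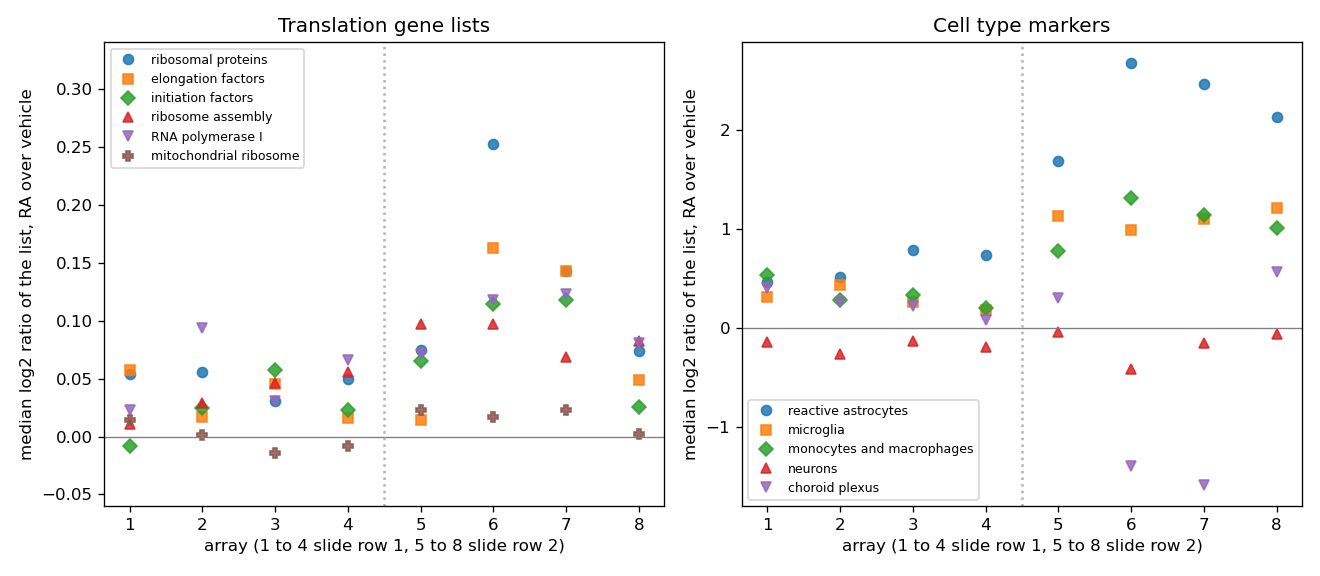
Median log2 ratio of RA over vehicle (y axis) of translation gene lists (left) and cell type marker lists (right) on each array (x axis), with a dotted line between the slide rows. The cytosolic ribosomal proteins are highest on arrays 6 and 7, the mitochondrial ribosome stays near 0, and the choroid plexus markers drop on the same arrays 6 and 7.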

How the data were processed

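Blocks of hypothalamus from rats given RA or vehicle were compared on 8 Agilent arrays with 2 dyes, in both dye orders. The members and lists were chosen with earlier results of these data known. The authors deposited Cy3 and Cy5 intensity values per spot and Agilent's log10 ratio of Cy5 over Cy3, and a table of normalised log2 ratios. Their methods state that loess was used, that repeat spots of an oligo were averaged, and that limma took the dye-swap as a block, and the submitters' processing notes name limma.

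Here, with R 4.3.3 and limma 3.58.1, background was corrected by normexp (offset 50) on median signals, control and outlier spots were dropped, loess was applied within arrays, spots of a probe were averaged and every log2 ratio was turned to RA over vehicle. The deposited log2 table already ran in that direction. Accessions were matched to RefSeq genes of GRCr8 (18006 named probes), and the brightest probe of a gene was used. A probe was well above background where Agilent's mark held for at least 0.5 of its spots. The arrays' number limits the precision of every value.

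For RA over vehicle, 4 pairs were formed from 1 array of each dye order and their mean ratios tested, with the largest p of all 24 pairings kept. The dye effect was the coefficient of dye order over 8 arrays. The slide row was tested on pairs within a row (4 pairings). Adjusted p-values are Benjamini-Hochberg over 30367 probes, or 30347 for the slide row. The unadjusted threshold of 0.01 is that of the methods. The methods give 4 rats per group, but nothing says which arrays share RNA, so the dye p-values over 8 arrays do not separate animals from repeats. The main fits for RA, dye order and slide row were checked on simulated arrays, with planted changes larger than any mean ratio of the family. The other tests were not simulated. Named were, per subunit, the 4 highest and 3 lowest genes well above background, *Rpsa*, the stalk genes, paralogs with their parents, genes with called dye or row effects, dim genes, and in companion lists the called genes and a fixed few. *Rpl21*, *Rpl10a* and *Rpl7a* were named beyond this after their values were seen, as were the markers *Gfap*, *Ttr*, *Pomc*, *Hcrt*, *Tmem119* and *P2ry12*.

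Alternatives were other background corrections, Agilent's and the deposited ratios, other scaling, outlier spots kept, bright probes alone, single dye orders and rows, all probes of a gene, other pairings and arrays left out. Leaving out arrays 6 and 7 together, pairing arrays by their ratios, and dropping paralogs and dim genes, were chosen after seeing the data. Start sites and promoters are RefSeq's for GRCr8.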

Additional observations from a re-analysis of the deposited data

Results flagged for a closer look

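Within each dye order of 4 arrays, 7 values lay far from the other 3 by the cut-off of Dixon's test, among 80 groups examined. The cut-off is set for 1 in 20 independent groups. These groups overlap and mostly hold the ratios on which the family was picked, so the values are flags and not a test. Of the 7 values, 4 were on array 6 and 2 on array 7. On array 6 the median of small subunit genes was 0.28, with the others between 0.046 and 0.086. The small minus large subunit median was 0.075 on that array, against 0.022 to 0.024. *Rps7* was 0.39 there, against 0.06 to 0.10. The elongation factors had a median of 0.16 on array 6 (others 0.045 to 0.058) and of 0.14 on array 7 (others 0.014 to 0.016). *Rpl22* was 0.48 on array 7, against 0.15 to 0.20. *Rpl17* was lowest on array 3 with 0.19, against 0.31 to 0.33. Arrays 6 and 7 are also those with low choroid plexus markers (median -1.39 and -1.59), whose part in these values was not tested.

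The ratio with RA in Cy5 exceeded that with RA in Cy3 past an adjusted p of 0.05 in limma in 6 genes. The difference on the log2 scale was 0.50 for *Rpl17*, 0.41 for *Rpl41*, 0.39 for *Rps23*, 0.39 for *Rpl23*, 0.38 for *Rpl12* and 0.38 for *Rps10*.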

How the results depend on the processing

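The median log2 ratio of the ribosomal protein genes stayed above 0 in all 22 alternatives, from 0.044 (slide row 1) to 0.13 (slide row 2). Between 60 (RA in Cy3 alone) and 75 genes were above 0. The large minus small subunit median was below 0 throughout, at -0.017 as reported, -0.054 with RA in Cy3 alone, -0.069 in slide row 2, -0.0064 without arrays 6 and 7 and -0.053 to -0.013 with 1 array left out. Of 633 values for 28 named genes, 4 moved by more than the SD over the 8 arrays, all of dim genes. *Rpl27l2* became 0.93 and *Rpl3l* 0.61 and *Rps12l4* -0.69 with plain background subtraction, and *Rpl27l2* -0.51 with Agilent's log ratio. A single dye order or slide row cannot shift a mean by that SD, and neither can leaving out 1 array or arrays 6 and 7. Bright probes alone, paralogs dropped and Aquantile scaling leave the value of a kept gene as it was. All these settings could only come out as unmoved, so most of the 633 values could not move. Among genes well above background, *Rpl17* was 0.29 with RA in Cy5 alone and -0.22 with RA in Cy3 alone. Scaling by Aquantile alters intensities and leaves ratios as they were.

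In limma, 988 probes passed an unadjusted p of 0.01 for RA over vehicle, 330 with Agilent's log ratio, 2308 with neighbouring arrays in a random replicate block (correlation 0.058) and 2481 as independent arrays. The range with a pair of arrays left out was 455 to 1111. The 11 called genes of the companion lists became 4 with Agilent's log ratio, 22 with the block, 22 as independent arrays and 4 to 12 with a pair left out. The 1180 probes with a called dye effect became 516 without background correction, 552 with Agilent's log ratio, 544 with the deposited values, 569 with bright probes alone and 185 to 446 without 1 array. The 6 ribosomal protein genes among them became 1 with Agilent's log ratio (*Rpl17*) and 1 to 3 without 1 array. For the slide row, 22 probes were called, 0 with Agilent's log ratio, 0 with bright probes alone and 492 as independent arrays, where *Rps2* was the 1 gene of the family. The cause of these changes was not tested. The labels carry no numbers that pair arrays. Over 15075 other named genes, deviations from the dye-order means paired arrays 1 with 2, 3 with 4, 6 with 7 and 8 with 5 (r 0.47 to 0.70, other pairs of opposite dye order -0.40 to 0.26), a hint from the data chosen after seeing them. With this pairing as a replicate block, 1081 probes and 11 companion genes were called for RA over vehicle, and 3475 probes and 16 ribosomal protein genes for the dye effect. As a random replicate block (correlation 0.37) these were 1722, 18, 4782 and 19. Probes of dim genes and possible binding of near-identical copies limit single values.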
